A study of Mus musculus with 4 samples.

Results

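The genes described here are 10 genes of the disease-associated microglia (DAM) programme, namely Trem2, Tyrobp, Cst7, Itgax, Clec7a, Lpl, Spp1, Cd9, Ctsb and Ctsd. They were found by symbol among the 32285 genes of each count matrix, and the set was proposed with earlier results of these data known. A row was found for 9 of the 10, and Clec7a was not analysed here. The gene identifiers of the 9 matched the annotation of the build mm10.

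DAM are microglia that turn down their resting genes and turn up genes for lipid uptake, lysosomal digestion and adhesion, and in amyloid models they gather around plaques. Their receptor TREM2 binds lipids and apolipoproteins at the cell surface and has no signalling tail of its own, so it signals through the adaptor TYROBP (also called DAP12), whose activation motif recruits the kinase SYK. In the usual description, Tyrobp, Ctsb and Ctsd rise early and without need of TREM2, whereas Cst7, Itgax, Clec7a, Lpl, Spp1 and Cd9 belong to the later, TREM2-dependent state.

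Brain nuclei came from female 5XFAD mice of 7 to 10 weeks, which carry human transgenes with familial Alzheimer mutations under the neuronal Thy1 promoter. All mice received extracellular vesicles (EVs) intravenously at the same dose, either PE-low EVs or PE-high EVs, which differ in phosphatidylethanolamine (PE). These vesicles had been rebuilt from lipids of adipocyte EVs and carried transferrin for delivery to the brain. The study describes their administration as chronic, without a separate duration for the sequenced mice. Each group had 2 libraries, and each library pooled 2 mice. Every library was from 5XFAD mice given EVs, so no comparison with an untreated or a wild-type brain was made here. Values given for each library stand in the order PE-low EV replicate 1, PE-low EV replicate 2, PE-high EV replicate 1, PE-high EV replicate 2.

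The libraries held 29472021 to 43272337 unique molecular identifiers (UMIs, each a counted RNA molecule). Nuclei were kept if they had 200 to 2500 genes and a mitochondrial share of UMIs of 15% or less, which left 37536 in all, 7608 to 10294 in each library. Of these, 1645 (4.38%) were microglia-like, 332 to 481 in each library, with a median of 537 to 797 UMIs. Of the 12 microglial markers 1, C3, was at 0 in every library, and the 12 together reached 4384 to 5397 CPM (UMIs of a gene scaled to a library or class total of 1000000) in microglia-like nuclei against 573 to 727 in near-empty barcodes. Macrophage markers summed to 13.1 to 63.4 CPM, with 2 to 5 of the 7 at 0, and neutrophil markers to at most 6.67 CPM. From these barcodes, 49.4% to 55.3% of the UMIs in microglia-like nuclei were estimated to be RNA released from other cells during isolation. The clusters and their names used none of the members. Of 45589 called barcodes, 45361 had a distinct sequence, and none occurred in all 4 libraries.

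The start regions of 4 members are shown because they span the range of the results: Trem2 and Ctsd were well detected in microglia-like nuclei, and Cst7 and Itgax lay at or near 0. Each window runs from 250 bases before to 50 bases after the start in RefSeq on GRCm38.p6, the assembly behind mm10, and is printed 5′ to 3′ on the gene's strand. Capitals mark GAGGAA (the core of the site of PU.1, a myeloid lineage factor), CACGTG (the E-box read by TFEB, TFE3 and MITF, regulators of lysosomal genes) and TGANTCA (AP-1), searched on both strands.
Trem2, chr17:48346151-48346450, plus strand: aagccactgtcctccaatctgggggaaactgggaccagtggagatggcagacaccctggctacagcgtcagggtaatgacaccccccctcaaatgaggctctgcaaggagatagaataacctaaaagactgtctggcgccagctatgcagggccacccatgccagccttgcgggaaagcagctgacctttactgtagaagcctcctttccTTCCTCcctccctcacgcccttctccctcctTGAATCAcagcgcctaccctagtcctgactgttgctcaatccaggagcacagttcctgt
Ctsd, chr7:142387778-142388077, minus strand: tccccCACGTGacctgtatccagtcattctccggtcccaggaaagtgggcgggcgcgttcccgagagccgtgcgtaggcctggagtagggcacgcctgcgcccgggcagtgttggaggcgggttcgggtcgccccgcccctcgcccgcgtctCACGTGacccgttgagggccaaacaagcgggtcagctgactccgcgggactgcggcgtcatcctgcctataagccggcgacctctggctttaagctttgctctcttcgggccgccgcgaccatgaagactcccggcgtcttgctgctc
Cst7, chr2:150570165-150570464, plus strand: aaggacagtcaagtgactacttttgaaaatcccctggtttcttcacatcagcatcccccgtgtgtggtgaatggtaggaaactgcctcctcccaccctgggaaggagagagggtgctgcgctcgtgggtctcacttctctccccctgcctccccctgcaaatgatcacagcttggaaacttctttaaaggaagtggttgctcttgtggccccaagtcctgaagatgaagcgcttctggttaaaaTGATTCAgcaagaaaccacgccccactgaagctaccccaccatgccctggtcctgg
Itgax, chr7:128129300-128129599, plus strand: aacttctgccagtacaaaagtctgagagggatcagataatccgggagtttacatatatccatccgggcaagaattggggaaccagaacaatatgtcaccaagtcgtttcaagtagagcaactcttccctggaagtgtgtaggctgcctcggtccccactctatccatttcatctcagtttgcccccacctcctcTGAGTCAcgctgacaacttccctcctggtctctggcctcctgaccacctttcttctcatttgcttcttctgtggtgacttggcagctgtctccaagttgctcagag
The Trem2 window held the PU.1 core at position -40 from the start and an AP-1 match at position -9. An AP-1 match also lay at position -6 in Cst7 and at position -56 in Itgax, and the Ctsd window held 2 copies of CACGTG. Of 32851 start regions of the same length, 28.3% held GAGGAA, 7.15% CACGTG and 7.81% TGANTCA, so the matches are descriptions of these letters. The first of 2 Spp1 windows held 1 GAGGAA and the Cd9 window held none of the motifs.

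Trem2, the receptor (chr17:48346401-48354147, plus strand), was a gene of microglia-like and macrophage-like nuclei. It measured 128.5, 125.8, 131.0 and 93.4 CPM in microglia-like nuclei, from 59, 40, 51 and 28 UMIs. PE-high EV replicate 2 was the lowest, and the groups overlapped. The mean was 119.7 ± 17.7 CPM (SD, n = 4), beside 118.5 ± 74.3 CPM in the 71 macrophage-like nuclei, the latter from only 7 UMIs. These neighbours in the order of classes did not differ beyond their spread. Next came oligodendrocyte-like nuclei at 9.7 ± 2.2 CPM and, far down the order, excitatory neuron-like nuclei at 4.4 ± 1.0 CPM. Trem2 was higher in microglia-like nuclei than in each of the 8 other classes with at least 20 nuclei in every library, by 3.47 to 4.74 on the log2 scale. The adjusted p was 2.06e-22 against excitatory neuron-like nuclei and at most 2.66e-08.

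Tyrobp, the adaptor (chr7:30413760-30417585, plus strand), followed Trem2. Its levels in microglia-like nuclei were 69.7, 106.9, 107.9 and 96.7 CPM, from 32, 34, 42 and 29 UMIs, with PE-low EV replicate 1 the lowest. Macrophage-like nuclei were first in order at 142.9 ± 63.1 CPM, from only 10 UMIs. Microglia-like nuclei were second at 95.3 ± 17.8 CPM, with overlapping libraries, and neuroblast-like nuclei next at 21.5 ± 10.7 CPM. Tyrobp levels in macrophage-like nuclei are thus imprecise. It too was higher in microglia-like nuclei than in all 8 classes, by 2.22 to 3.70 on the log2 scale. These p-values come from edgeR's quasi-likelihood test on UMIs summed per class and library with the library as a block, adjusted over 12645 genes at a threshold of 0.1. They measure only the spread between libraries, since the classes were cut from the same nuclei. The share of all genes called higher in microglia-like nuclei was 16.3% against astrocyte-like, 13.4% against endothelial cell-like, 26.0% against excitatory neuron-like, 24.8% against inhibitory neuron-like, 14.2% against neuroblast-like, 13.8% against oligodendrocyte precursor-like, 16.0% against oligodendrocyte-like and 24.5% against striatal projection neuron-like nuclei.

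**Figure D1:**
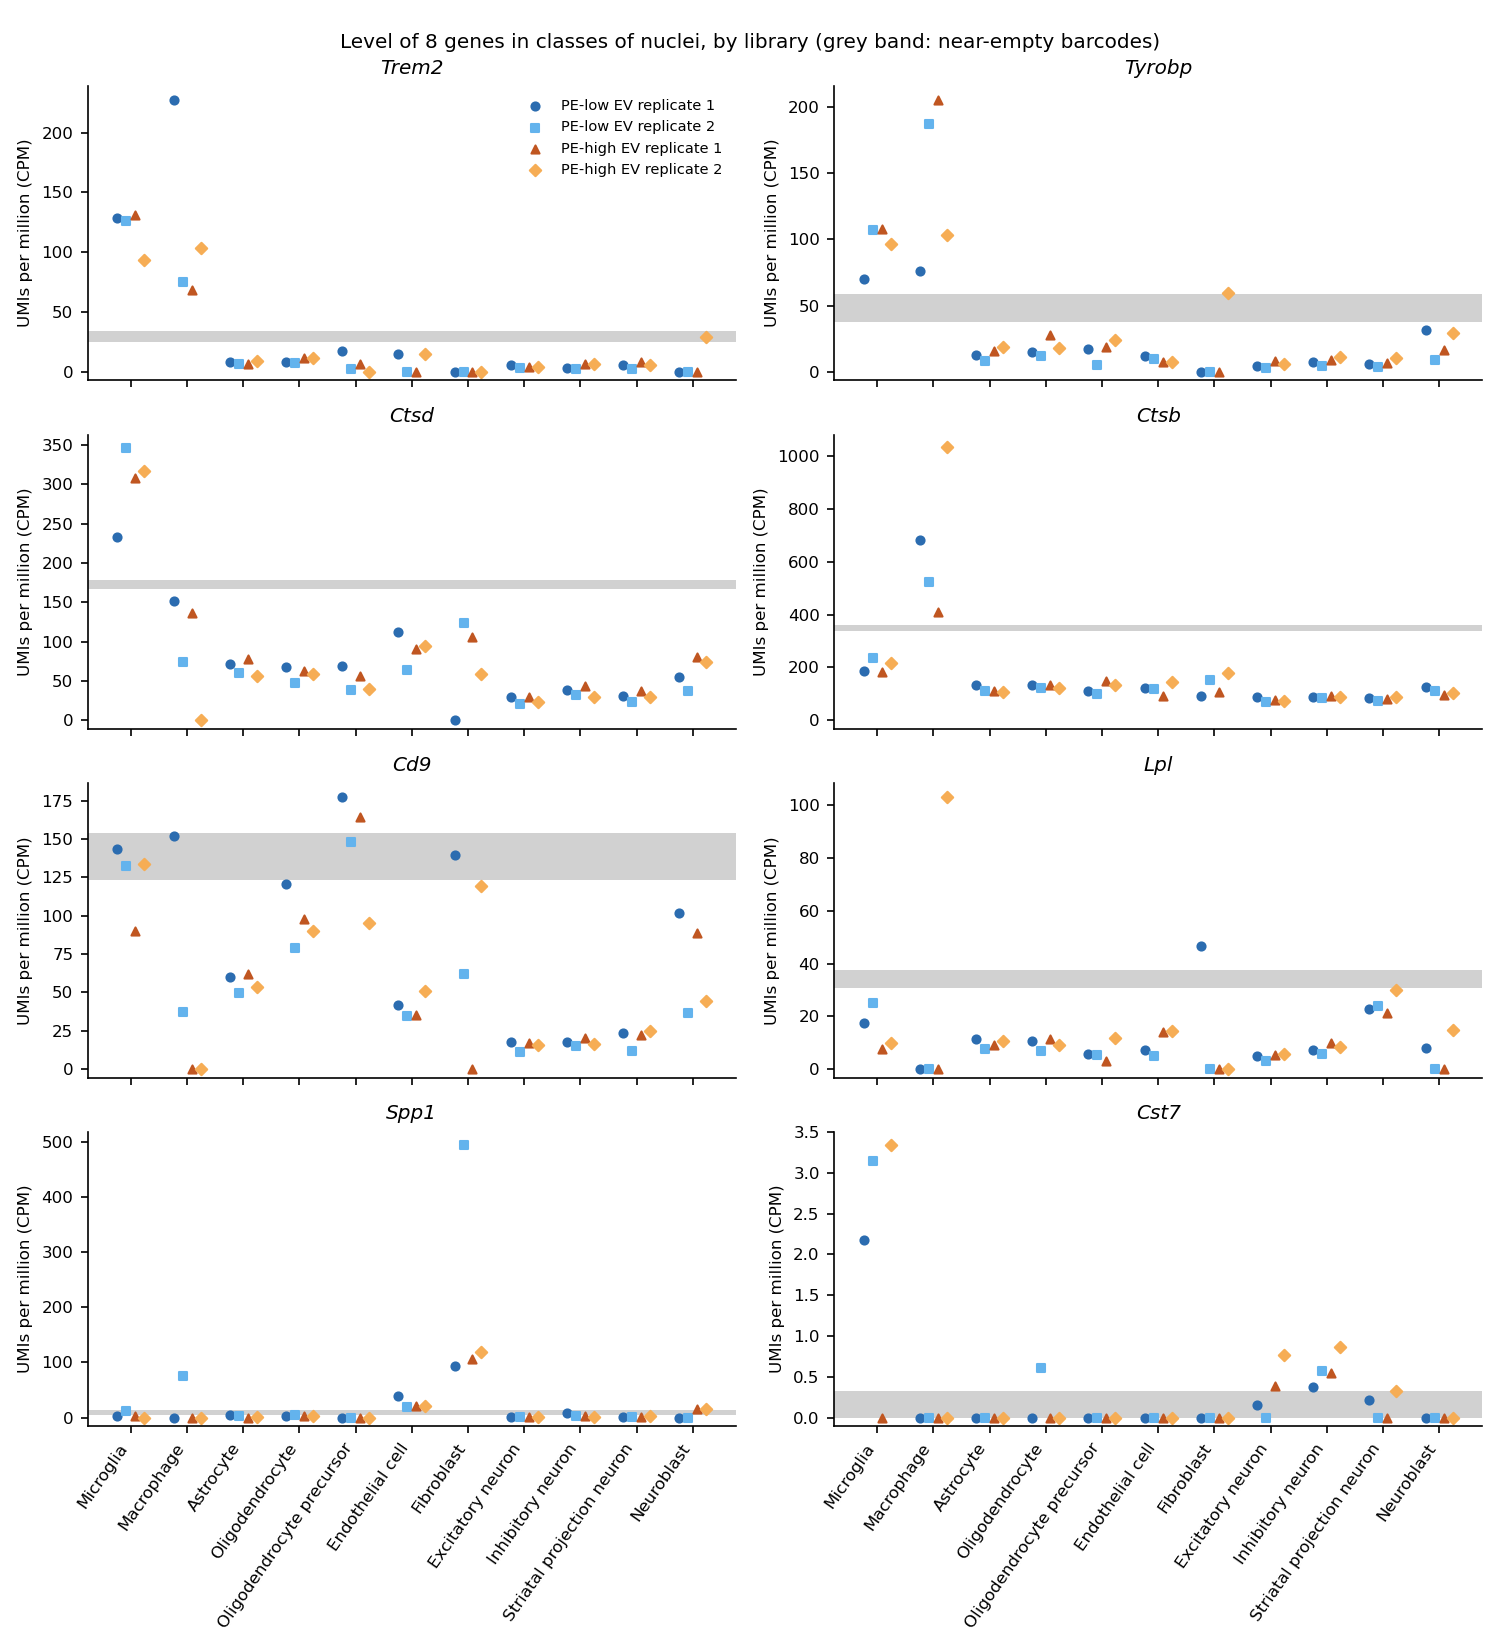
Levels of the members other than Itgax and Clec7a in CPM, 1 point for each of the 4 libraries. The named classes of nuclei are shown except choroid plexus-like and ependymal cell-like nuclei. The grey band spans the levels in near-empty barcodes. Trem2 and Tyrobp stood apart in microglia-like and macrophage-like nuclei, Ctsd in microglia-like nuclei (301.0 CPM on average), Ctsb in macrophage-like nuclei (662.5 CPM) and Spp1 in fibroblast-like nuclei (203.0 CPM). There were only 71 macrophage-like and 78 fibroblast-like nuclei.

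The lysosomal proteases Ctsd and Ctsb parted by cell class. Ctsd, an aspartic protease (chr7:142375911-142388038, minus strand), measured 233.0, 345.9, 308.3 and 316.8 CPM in microglia-like nuclei, from 95 to 120 UMIs a library. Its mean of 301.0 ± 48.1 CPM was first in order and did not overlap the next, macrophage-like nuclei at 90.9 ± 69.2 CPM. Ctsd was higher in microglia-like nuclei than in all 8 classes tested, by 1.53 to 3.06 on the log2 scale. Ctsb, a cysteine protease (chr14:63122462-63145923, plus strand), measured 185.1, 235.9, 182.4 and 216.8 CPM, from 65 to 85 UMIs. Here macrophage-like nuclei came first at 662.5 ± 270.7 CPM, and their lowest library, at 411.1 CPM, lay above every library of microglia-like nuclei. Ctsb was also higher in microglia-like nuclei than in all 8 classes, but by only 0.45 to 0.96 on the log2 scale.

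Cd9, a tetraspanin of the cell surface (chr6:125460266-125494791, minus strand), was shared between glia. Microglia-like nuclei measured 143.7, 132.1, 89.9 and 133.4 CPM, with PE-high EV replicate 1 the lowest. Their mean of 124.8 ± 23.8 CPM came after choroid plexus-like (174.6 ± 106.8), ependymal cell-like (157.2 ± 161.8) and oligodendrocyte precursor-like nuclei (146.2 ± 36.1), and these neighbours overlapped. Choroid plexus-like nuclei numbered only 24 and ependymal cell-like nuclei 55. Pooled over libraries, choroid plexus-like nuclei held 122.6 CPM, below microglia-like nuclei at 124.8 CPM. Near-empty barcodes held Cd9 at 154.1, 123.3, 134.1 and 136.4 CPM. Cd9 was higher in microglia-like nuclei than in 6 of 8 classes, by 2.57 on the log2 scale against excitatory neuron-like nuclei. It was lower than in oligodendrocyte precursor-like nuclei, by -0.47 (SE 0.17, adjusted p = 0.0293), and this call was lost without PE-low EV replicate 1 (-0.44) and without PE-high EV replicate 1 (-0.29), with released RNA subtracted (-0.27) and at a mitochondrial limit of 3% (-0.56). Of all genes, 15.8% were called lower in that comparison. Against oligodendrocyte-like nuclei the difference was 0.15 (SE 0.15, adjusted p = 0.533).

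Lpl, lipoprotein lipase (chr8:68880491-68907448, plus strand), was low in microglia-like nuclei and did not mark them. It measured 17.4, 25.2, 7.7 and 10.0 CPM, from 8, 8, 3 and 3 UMIs, both PE-low EV libraries being above both PE-high EV libraries. Of the 7114 genes tested between treatments in this class, which Lpl had too few UMIs to be among, 19.2% stood in that order. Striatal projection neuron-like nuclei held 24.6 ± 3.8 CPM and microglia-like nuclei 15.1 ± 7.9 CPM. Lpl was lower in microglia-like than in striatal projection neuron-like nuclei, by -1.16 on the log2 scale (SE 0.29, adjusted p = 0.000812), in the same direction and past the threshold with any library left out (-0.94 to -1.39), where 30.1% of all genes were called lower. It was higher than in excitatory neuron-like nuclei by 1.19 (SE 0.37, adjusted p = 0.00499) and than in inhibitory neuron-like nuclei by 0.74 (SE 0.36, adjusted p = 0.0850). Both of these calls were lost without PE-low EV replicate 2, at 0.82 and 0.34, and the second also without PE-low EV replicate 1, at 0.69.

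Spp1, osteopontin, a secreted adhesion protein (chr5:104435118-104441050, plus strand), had its highest levels outside the microglia-like class. Fibroblast-like nuclei held 203.0 ± 194.0 CPM, with libraries from 93.1 to 493.6 CPM, and endothelial cell-like nuclei 25.5 ± 9.3 CPM. The fibroblast-like nuclei numbered only 78, 14 to 25 in each library. They held 9418 to 32414 UMIs of all genes a library, so their levels rest on few UMIs of Spp1. In microglia-like nuclei it measured 2.2, 12.6, 2.6 and 0 CPM, that is 6 UMIs in all 1645 nuclei, 4 of them in PE-low EV replicate 2. It was lower than in endothelial cell-like nuclei by -2.77 on the log2 scale (SE 0.66, adjusted p = 0.000723), with 14.8% of all genes called lower. An endothelial cluster was almost confined to PE-low EV replicate 1, and with that library left out the difference was -2.15 (adjusted p = 0.0647). Spp1 passed as higher against 2 neural classes, excitatory neuron-like (1.79, SE 0.82) and oligodendrocyte precursor-like nuclei (0 UMIs in all 4 libraries), and neither call was kept without PE-low EV replicate 2.

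Cst7, cystatin F, an inhibitor of lysosomal cysteine proteases (chr2:150570415-150578944, plus strand), had 3 UMIs in microglia-like nuclei, 1 in each library except PE-high EV replicate 1. This was 2.05 CPM over all microglia-like nuclei (exact 95% interval 0.423 to 5.98, counting error only), against 0.319 CPM in excitatory neuron-like nuclei. Itgax, the integrin chain CD11c (chr7:128129547-128150657, plus strand), had no UMI in any of the 37536 kept nuclei. For microglia-like nuclei a count of 0, read as at most 3 counts, allows up to 2.05 CPM and a share of nuclei with a UMI of up to 0.182%. The whole libraries, empty barcodes included, held 2, 3, 0 and 1 UMIs of Itgax and 9, 7, 7 and 9 of Cst7. At this depth neither gene could be compared between the treatments.

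Counted over members, 42 of 56 pairs of a member and another class passed as higher in microglia-like nuclei and 3 as lower. Trem2, Tyrobp, Ctsb and Ctsd made up 32 of the 42, Cd9 gave 6, and Lpl and Spp1 gave 2 each. Of the 32, 8 were of Ctsb, whose level in microglia-like nuclei was within counting error of released RNA, as given below. Under the study's own limit of 3% mitochondrial UMIs, only 32 pairs could be tested and 19 passed as higher, with Ctsb in 0 of 8 and Trem2 below the filter on low counts. Tyrobp still passed in 7 of 8 and Ctsd in 7 of 8. At that limit the share of all genes called higher was also lower, at 9.43% against astrocyte-like, 3.16% against endothelial cell-like, 12.1% against excitatory neuron-like, 10.8% against inhibitory neuron-like, 9.36% against neuroblast-like, 8.69% against oligodendrocyte precursor-like, 7.17% against oligodendrocyte-like and 13.4% against striatal projection neuron-like nuclei.

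Released RNA set part of each level, so each member was also read against the count that near-empty barcodes predict. Trem2 had 178 UMIs in microglia-like nuclei where 23.8 were expected from released RNA, a ratio of 7.46 (95% counting interval 6.41 to 8.64). Tyrobp had a ratio of 3.68 (3.09 to 4.36), Ctsd of 3.29 (2.98 to 3.61) and Cd9 of 1.73 (1.49 to 2.00). Ctsb, with 296 UMIs where 269.3 were expected, had a ratio of 1.10 (0.978 to 1.23), so its level was within counting error of released RNA. Lpl (0.828, 0.519 to 1.25) and Spp1 (0.923, 0.339 to 2.01) were likewise not distinguishable from it. Cst7 had 3 UMIs where 0.0989 were expected, a ratio of 30.3 with a wide interval (6.26 to 88.7), and Itgax had none. In macrophage-like nuclei the Ctsb ratio was 3.48 (2.47 to 4.76), and the Ctsd ratio, from 6 UMIs, was 1.09 (0.401 to 2.38). The intervals leave out the uncertainty of the released share itself. That share also differed by class. It was 14.3% to 20.5% in excitatory neuron-like, 49.4% to 55.3% in microglia-like and 59.0% to 72.9% in oligodendrocyte precursor-like nuclei. With the predicted counts subtracted, Trem2, Tyrobp and Ctsd still passed against all 8 classes and Cd9 against 6, while Ctsb and Lpl were left with too few counts for the test.

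**Figure D2:**
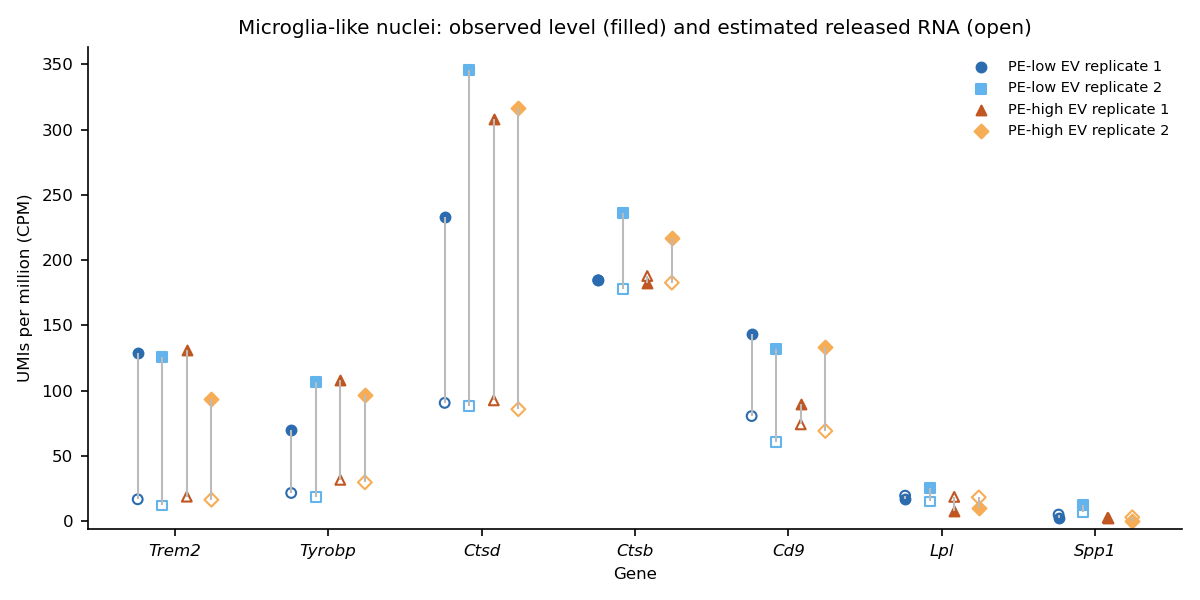
Observed level of each member in microglia-like nuclei, in CPM, beside the level expected from released RNA, 1 point for each library. Trem2, Tyrobp and Ctsd lay above the expected level, by ratios of 7.46, 3.68 and 3.29 over all libraries, whereas Ctsb (1.10), Lpl (0.828) and Spp1 (0.923) lay on it.

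The levels were not even within the microglia-like class. In the 154 nuclei with at most 3% mitochondrial UMIs, whose median depth was 1804 UMIs, Trem2 stood at 49.5 CPM, Tyrobp at 49.5 and Ctsd at 115.6 CPM. In the 394 nuclei between 3% and 5%, with a median of 716.5 UMIs, Trem2 stood at 138.9, Tyrobp at 112.2 and Ctsd at 291.2 CPM. Between 5% and 10%, in 807 nuclei, Trem2 stood at 133.3, Tyrobp at 87.8 and Ctsd at 357.8 CPM. Between 10% and 15%, in 290 nuclei, the levels were 162.9, 142.5 and 386.8 CPM. Trem2 and Tyrobp thus did not rise at every step. Ctsb stood at 105.7 CPM in the lowest and 269.8 CPM in the highest bin, and Cd9 at 109.0 and 157.8 CPM. Depth and mitochondrial share moved together here, and their part in these levels was not tested. In excitatory neuron-like nuclei the lowest and highest bins held Ctsd at 21.8 and 40.3 CPM and Trem2 at 3.6 and 4.3 CPM.

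The subclusters showed the same split. A subcluster of 267 nuclei with a median of 2052 UMIs held Trem2 at 48.7, Tyrobp at 28.5 and Ctsd at 99.0 CPM. The 3 largest others, with medians of 552 to 656 UMIs, held Trem2 at 163.5 to 184.1, Tyrobp at 114.6 to 160.3 and Ctsd at 406.3 to 467.7 CPM. A group of 32 nuclei, led by Cd83, Il1a, Tnf and Ccl12 among others, had Tyrobp at 330.0 CPM and Trem2 at 146.7 CPM, and 27 of the 32 came from PE-low EV replicate 2. These are descriptions over nuclei that share libraries, with no test.

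**Figure D3:**
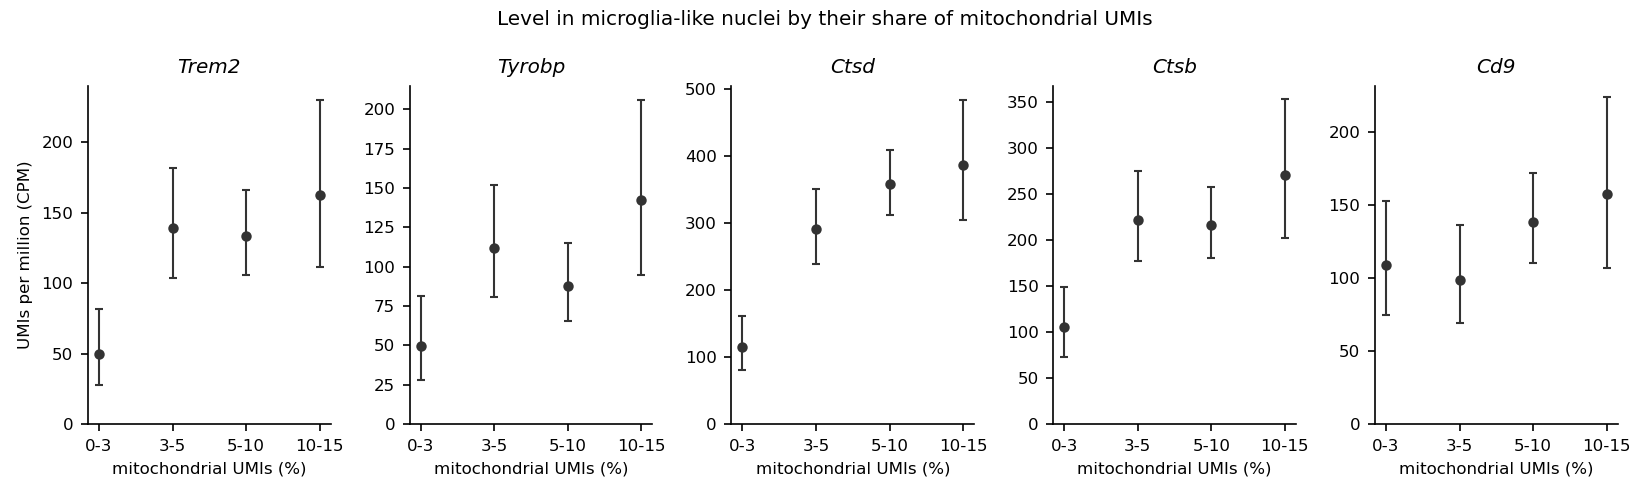
Levels of the better detected members in microglia-like nuclei, in CPM, by bins of the mitochondrial share of UMIs in percent, pooled over the 4 libraries with 95% counting intervals. Trem2 stood at 49.5 CPM in nuclei of at most 3% and at 162.9 CPM in those of 10% to 15%.

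Per nucleus, detection was thin. Of 1645 microglia-like nuclei, 812 had no UMI of any member, 596 had UMIs of 1 member, 189 of 2 and 48 of 3 or more, the most being 5. To set classes of unlike depth side by side, each nucleus was thinned to 500 UMIs, which left 1316 microglia-like and 9133 excitatory neuron-like nuclei. A member was then seen in 38.6% ± 2.0 (SD, n = 4) of microglia-like and 7.48% ± 0.70 of excitatory neuron-like nuclei. The share was 7.43% against 0.232% for Trem2, 6.12% against 0.291% for Tyrobp, 16.8% against 1.52% for Ctsd and 7.68% against 0.949% for Cd9. For Ctsb it was 10.95% against 4.38%. Without thinning, Ctsb was seen in 16.3% of microglia-like and 17.4% of excitatory neuron-like nuclei, whose median depth was 1865 to 3375 UMIs, and any member in 51.0% and 27.5%. At the limit of 3% the thinned share of microglia-like nuclei was 23.8% ± 15.8, from 147 nuclei.

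**Figure D4:**
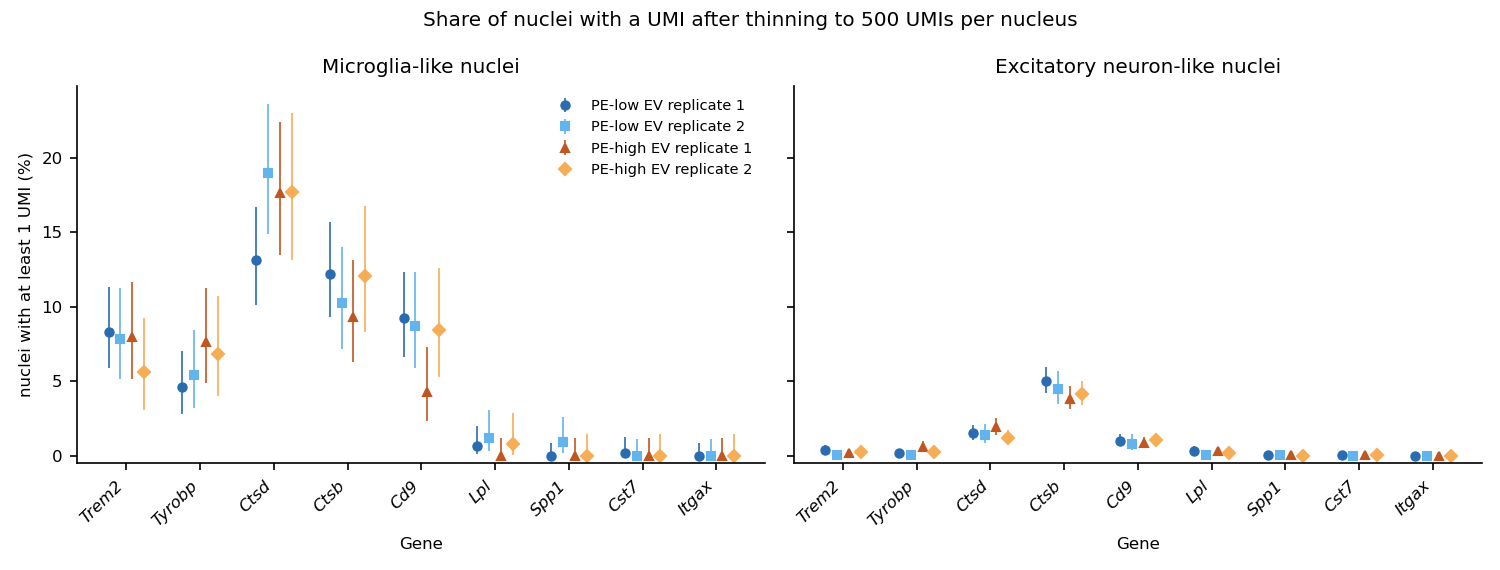
Percent of nuclei with at least 1 UMI of each member after thinning every nucleus to 500 UMIs, 1 point for each library, in microglia-like and excitatory neuron-like nuclei. Ctsd was seen in 16.8% of microglia-like nuclei and Trem2 in 7.43%, while Itgax was seen in none.

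Of 20 other DAM genes, which also took no part in the clustering, 15 were tested against excitatory neuron-like nuclei, and 12 were higher and 1 lower in microglia-like nuclei. Of all genes, 26.0% were called higher and 32.1% lower. The split depended on the class compared. Of the same 15 genes, 12 were higher and 2 lower against inhibitory neuron-like and 11 and 1 against striatal projection neuron-like nuclei. Against neuroblast-like nuclei 6 were higher and 1 lower, and against oligodendrocyte precursor-like nuclei 6 and 0. Against other glia and vessels the directions were mixed, with 5 higher and 5 lower against astrocyte-like, 5 and 4 against oligodendrocyte-like and 3 and 5 against endothelial cell-like nuclei. The share of all genes called lower was 29.9% against inhibitory neuron-like, 30.1% against striatal projection neuron-like, 10.1% against neuroblast-like, 15.8% against oligodendrocyte precursor-like, 19.1% against astrocyte-like, 16.2% against oligodendrocyte-like and 14.8% against endothelial cell-like nuclei. In the comparison with excitatory neuron-like nuclei, the smallest p belonged to Ctsz, a cathepsin (2.97 on the log2 scale, adjusted p = 4.49e-20), Apoe, the lipid carrier (1.14, adjusted p = 1.10e-13), and Fth1, the ferritin heavy chain (0.93, adjusted p = 5.43e-11). The lower gene was Ank, a pyrophosphate transporter (-1.04, adjusted p = 7.96e-11). The means of these 20 genes in microglia-like nuclei ran from 0.834 CPM (Gpnmb and Lgals3, 1 UMI each) to 1851 CPM (Fth1), with Ctsl at 104.2, Fabp5 at 92.8 and Cd63 at 76.5 CPM. Together the 20 summed to 3792 to 3903 CPM in microglia-like nuclei, below the 8838 to 10254 CPM of near-empty barcodes. What part released RNA had in these calls was not tested. The homeostatic genes ranged from a mean of 59.3 CPM (P2ry13) to 2129 CPM (Cst3), with Cx3cr1 at 388.6 and P2ry12 at 486.4 CPM. The genes of the remaining lists were not held out of the clustering, save Apoe, Ctsa, Ctsl and Ctsz, which are also among the 20. The counts of these lists therefore only describe the class. All 12 homeostatic genes were higher than in excitatory neuron-like nuclei, among them Siglech and Csf1r, as were 9 of 10 tested TREM2 signalling genes, led by Inpp5d, Plcg2 and Vav1, with Vav3 lower. Of the cathepsins and cystatins 11 of 12 were higher, led by Ctss, Cst3 and Ctsc, and of the lipid handling genes 6 of 10, led by Abca1, Apoe and Npc2, with Pparg lower. In microglia-like nuclei the cathepsins and cystatins summed to 2966 to 3435 CPM, against 3850 to 4584 CPM in near-empty barcodes. The lipid handling genes summed to 1441 to 1668 against 3271 to 3745 CPM. The homeostatic and the TREM2 signalling genes summed above near-empty barcodes in every library. Over the 8 classes the homeostatic genes gave 12 higher in each and the TREM2 signalling genes 8 or 9 of 10, whereas the cathepsins and cystatins gave from 5 higher and 2 lower (endothelial cell-like) to 12 and 0 (striatal projection neuron-like). The lipid handling genes gave 1 higher and 3 lower against endothelial cell-like and 2 higher and 4 lower against oligodendrocyte-like nuclei.

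The genes most like each member were sought over 52 sums of a class and a library among 13596 genes, by Pearson's r of log2(CPM + 1). For Trem2 they were Wdfy4 (r = 0.82), Selplg, Plcg2, E230029C05Rik and Cdh23, and for Tyrobp Hpgds (0.91), Pou2f2, C1qc, Cttnbp2nl and Mknk1. For Ctsd they were Mapk6 (0.88), Casd1, Tug1, Myo9b and Kdm5a, and for Ctsb Kpna4 (0.90), Slc25a4, Fxr1 and Srsf3. Spp1 was most like Vtn (0.83), Mgp, Tpm4, Cxcl12 and Slc16a12, of which Vtn and Mgp are known from cells of the vessel wall. For Lpl they were Zfp277 (0.77), Ermard, Calb1, Cap2 and Riok2, and for Cd9 A630089N07Rik (0.74), Daam1, Tfdp2, Usp33 and Elovl6. Sums of 1 library share its depth and its released RNA, and classes of few nuclei weigh as much as large ones, so r is given without a p. Cst7, with 24 UMIs over all kept nuclei, and Itgax were not searched.

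Between PE-high EV and PE-low EV libraries, which asks whether vesicles rich in PE changed the DAM genes of microglia, no member passed in microglia-like nuclei. Trem2 differed by -0.13 on the log2 scale (SE 0.26), Tyrobp by 0.29 (SE 0.29), Ctsd by 0.16 (SE 0.25), Ctsb by -0.04 (SE 0.24) and Cd9 by -0.30 (SE 0.26), each with an adjusted p of 0.991 by edgeR. The 2 groups overlapped for each of the 5, and the signs of Trem2, Tyrobp, Ctsb and Ctsd turned under some settings. Of all 7114 genes tested 0 were called (0.0%) by edgeR, with 288 at an unadjusted p under 0.05, and DESeq2 called 0. The other members had too few UMIs for the filter, Lpl with 16 UMIs in the PE-low EV and 6 in the PE-high EV libraries. Microglia-like nuclei of the PE-low EV libraries were deeper (medians of 702 and 797 UMIs) than those of the PE-high EV libraries (539 and 537 UMIs). The knee used to call nuclei was also higher in the PE-low EV libraries (573 and 839 UMIs) than in the PE-high EV libraries (405 and 422 UMIs). Its part in these depths was not tested.

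The lists around the members gave 0 calls as well. Of the other DAM genes 12 were tested, with a median of 0.03 on the log2 scale, against -0.00 for all genes. The 12 homeostatic genes had a median of -0.15, the 10 TREM2 signalling genes -0.11, the 10 cathepsins and cystatins 0.07 and the 5 lipid handling genes 0.02. Of the most abundant of these genes, Fth1 measured 1862, 1837, 1842 and 1861 CPM, Apoe, which is also on the lipid list, 1137, 1157, 1272 and 987.2 CPM, and Cst3, which stands on the homeostatic and cathepsin lists, 2041, 1871, 2328 and 2278 CPM. Among the TREM2 signalling genes, Inpp5d, a lipid phosphatase that limits the pathway, measured 851.5, 1264, 850.5 and 920.5 CPM, with PE-low EV replicate 2 apart, and Adam10, a protease that sheds TREM2, 128.5, 248.5, 208.1 and 206.8 CPM. Ctss measured 206.9, 393.1, 331.5 and 343.5 CPM and Abca1, a lipid exporter, 239.6, 195.0, 141.3 and 196.8 CPM.

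The share of microglia-like nuclei with a UMI of any member, thinned, was 39.0% in PE-low EV and 38.2% in PE-high EV libraries, a difference of -0.77 percentage points (exact permutation test over libraries, two-sided, p = 0.667, the smallest possible with 2 against 2 being 0.333). Without thinning the difference was -9.22 points, while the excitatory neuron-like nuclei of the same libraries differed by -8.38 points.

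**Figure D5:**
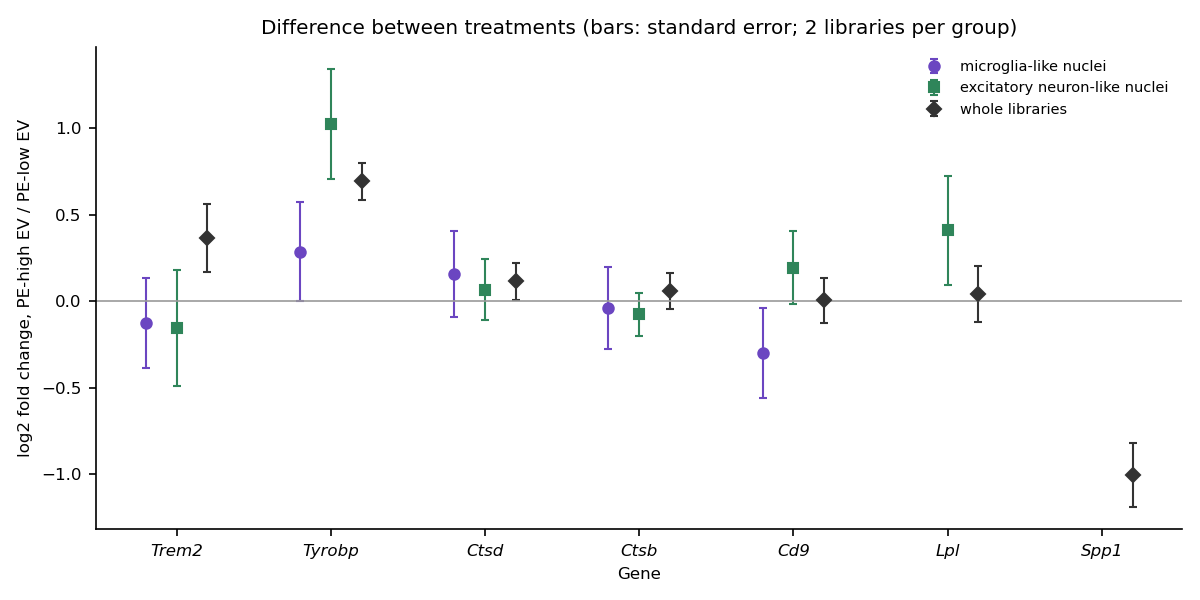
Difference between PE-high EV and PE-low EV libraries for the members that could be fitted, as a log2 fold change with its standard error (bars), in microglia-like nuclei, excitatory neuron-like nuclei and whole libraries, 2 libraries per group. Tyrobp lies above 0 in all 3 (0.29, 1.03 and 0.69), Spp1, fitted in whole libraries only, at -1.0, and no difference passed the test in edgeR.

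In the other classes 35 fits of a member were made and 0 passed. Without PE-low EV replicate 1, Tyrobp passed in excitatory neuron-like nuclei (1.36, adjusted p = 0.0565) and Cd9 in striatal projection neuron-like nuclei (0.92, adjusted p = 0.0264), where 3.07% and 5.96% of all genes were then called. With all libraries, the only genes called there were 5 of 2828 in neuroblast-like nuclei (0.177%), none of them a member, and DESeq2 called 0 in these classes. Tyrobp had a positive difference in each of the 5 such classes in which it could be fitted, of 0.73 in astrocyte-like, 1.03 in excitatory neuron-like, 0.92 in inhibitory neuron-like, 0.83 in oligodendrocyte-like and 0.73 in striatal projection neuron-like nuclei. In excitatory neuron-like nuclei it measured 4.3, 2.8, 8.3 and 6.1 CPM, from 28, 14, 43 and 32 UMIs (log2 difference 1.03, SE 0.32, edgeR adjusted p = 0.746). Both PE-high EV libraries lay above both PE-low EV libraries there, as did 13.2% of all genes tested, and 0.899% to 1.68% of these nuclei had a UMI. In near-empty barcodes of the same libraries Tyrobp measured 41.4, 37.9, 57.3 and 58.8 CPM, so the groups stood in the same order in the released RNA, whose part in these values was not tested. The change of Tyrobp in microglia-like nuclei minus that in excitatory neuron-like nuclei was -0.74 (SE 0.44), that of Lpl -1.63 (SE 0.83) and that of Trem2 -0.01 (SE 0.54), each with an adjusted p of 1.0 in edgeR's test of the interaction. This test called 0 of 14256 genes (0.0%).

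Summed over whole libraries, with empty barcodes included, the members had the most UMIs, but here fewer cells of a type and less RNA per cell cannot be told apart. Tyrobp measured 23.4, 20.9, 34.5 and 34.2 CPM, and both PE-high EV libraries lay above both PE-low EV libraries, as did 9.93% of all genes. Its difference was 0.69 on the log2 scale (SE 0.11, edgeR adjusted p = 0.952). Spp1 measured 6.3, 8.2, 3.2 and 3.8 CPM, lower in both PE-high EV libraries, as were 23.1% of all genes, with a difference of -1.0 on the log2 scale (SE 0.18, edgeR adjusted p = 0.952). Trem2 measured 20.8, 13.7, 22.4 and 20.2 CPM, a difference of 0.37 (SE 0.20) between overlapping groups. Ctsb, Ctsd, Cd9 and Lpl differed by 0.00 to 0.12.

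No gene of 19225 was called over whole libraries by edgeR (0.0%), with 880 at an unadjusted p under 0.05, whereas DESeq2 called 10 (0.052%), among them Tyrobp (adjusted p = 0.0187). These counts rested on single libraries. Without PE-low EV replicate 1, 2434 genes were called (12.6%), among them Tyrobp (0.78), Spp1 (-1.17), Trem2 (0.71) and Lpl (0.30), and without PE-low EV replicate 2, 713 genes (3.69%), among them Tyrobp (0.61) and Spp1 (-0.81). With a PE-low EV library left out, that group had 1 library, which was assumed to vary like the others. Over whole libraries the homeostatic genes had a median difference of 0.32 with 0 called. In near-empty barcodes the 12 microglial markers, like Tyrobp, were higher in both PE-high EV libraries, at 657.5, 572.7, 727.3 and 697.6 CPM summed. The 8 excitatory neuron markers had that order too, at 3224, 2917, 3257 and 3234 CPM summed. There the 7 pericyte or smooth muscle markers, at 71.9, 40.4, 35.8 and 38.2 CPM summed, had the order of the groups that Spp1 had. So had the 6 fibroblast markers, at 15.3, 20.9, 13.3 and 13.6 CPM summed. The endothelial cell, ependymal cell and oligodendrocyte markers had it too. Fibroblast markers, like Spp1, were highest in PE-low EV replicate 2, and pericyte or smooth muscle markers in PE-low EV replicate 1. What part the numbers of these cells had in the values of Tyrobp and Spp1 was not tested.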

How the data were processed

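Per the labels, reads were counted by Cell Ranger 7.1.0 against mm10. The authors deposited raw UMI counts per gene and barcode, empty droplets included. Gene and barcode names came in separate deposited lists without a measurement (unit: other). Whether intronic reads were counted is not stated. The members and lists were chosen with earlier results of these data known.

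Nuclei were called at the knee of the UMI totals (1/10 of the 0.99 quantile) and, from 500 UMIs on, by a test against near-empty barcodes (FDR 0.01, 10000 simulations). The knees were 573, 839, 405 and 422 UMIs. The test added 364 and 965 nuclei to the PE-low EV libraries. In the PE-high EV libraries the knee lay below 500 UMIs, so 0 barcodes were tested there. Limits were 200 to 2500 genes and 15% mitochondrial UMIs. The study states 3%, which left 1457 to 3458 nuclei a library and stands as an alternative. Counts were scaled to 10000 per nucleus, and 2000 variable genes, without the members and the other DAM genes, gave 30 principal components, 20 neighbours and Leiden clusters at a resolution of 0.8 (scanpy 1.11.5). Clusters were named from fixed markers, and the naming thresholds (20 CPM and 3-fold) were revised after clusters were seen. Doublets were not removed, since Scrublet marked 0.00992% to 0.0389% of nuclei in 3 libraries. In PE-low EV replicate 2 it marked 229 nuclei (3.01%), 13 of them microglia-like, and these stayed in.

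UMIs summed per class and library were tested with edgeR 4.0.16 (quasi-likelihood, filterByExpr, TMM, Benjamini-Hochberg over all genes tested, threshold 0.1), with DESeq2 1.42.0 as an alternative. The edgeR test was tried on simulated sums with known changes. The total counts per library limit precision, and intervals are exact and cover counting error only. Released RNA was estimated per library from barcodes ranked 45000 to 90000. The named genes were the members, the list genes that passed with the smallest p (up to 3 in a direction), or the 2 most abundant where none passed, and the 5 genes most like each member, and 2 of the genes so chosen are not reported here. Replicates differed beyond sampling noise (chi-square per degree of freedom 1.36 to 30.7), and each library was a replicate. Nothing in the labels says that libraries with the same replicate number share a batch.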

Additional observations from a re-analysis of the deposited data

Results flagged for a closer look

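Outside the classes compared above, 109 nuclei of 2 clusters carried microglial markers together with markers of oligodendrocytes or astrocytes and were left without a name. They were looked at because the levels of 5 members lay above the 23.7 CPM that a count of 0 (read as at most 3 counts) allows, and there is no control library to set them against. Trem2 stood there at 79.1 CPM, Tyrobp at 87.0 CPM, Cd9 at 102.8 CPM, Ctsb at 166.1 CPM and Ctsd at 181.9 CPM. Passing the limit means only more than 3 UMIs. Cd9 and Ctsb lay below near-empty barcodes (123.3 to 154.1 and 339.4 to 360.6 CPM), and Ctsd just above them (167.3 to 178.7 CPM). Trem2 and Tyrobp lay above near-empty barcodes (24.6 to 34.0 and 37.9 to 58.8 CPM). The part of released RNA was not tested. The other members lay below the limit of 23.7 CPM, Cst7 with 1 UMI.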

How the results depend on the processing

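The count of genes called in microglia-like nuclei, 0, was 8 without a filter on low genes, 1 with nuclei thinned to 500 UMIs and 0 to 6 with a library left out. In the other classes, 5 genes became 3 at an adjusted p of 0.05, 0 with DESeq2, 322 without the filter, and 3, 0 and 3 at mitochondrial limits of 3%, 5% and 10%, and 6 to 2380 with a library left out. Over whole libraries, 0 became 10 with DESeq2, 1 without the filter and 0 to 2434 with a library left out, and for the difference of the change 0 to 54. The 42 pairs became 19 at the 3% limit and 37 to 43 with a library left out. The share of microglia-like nuclei with a member, 38.6%, was 51.0% not thinned, 23.8% at 3% and 41.7% with nuclei gated on microglial markers, where the difference between the treatments turned to 2.43 points. The causes were not tested.

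The replicate numbers pair no samples by the labels, and the deviations of same-numbered libraries correlated at 0.0855 in microglia-like nuclei and 0.131 over whole libraries, with 2 pairs. With a replicate block, 584 genes were called in the other classes and 2 over whole libraries, and Tyrobp in excitatory neuron-like nuclei passed at 1.06 (adjusted p = 0.0760).

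In microglia-like nuclei, where no member was called, the sign turned for Trem2 without a mitochondrial limit (0.0081) and with the marker gate (0.14), for Tyrobp at 5% (-0.16), for Ctsb without a mitochondrial limit (0.15), without an upper limit on genes (0.12) and with the gate (0.25), and for Ctsd at 5% (-0.17) and 10% (-0.038). Over whole libraries it turned for Lpl in barcodes not called (-0.039) and for Cd9 there (-0.044), with DESeq2 (-0.00038), with its size factors in edgeR (-0.00036) and without the filter (-0.0014). The difference of the change turned at 3% for Trem2 (1.18) and Lpl (0.91). With a library left out, the microglia-like log2 changes ranged from -0.44 to 0.10 for Trem2, -0.0044 to 0.58 for Tyrobp, -0.20 to 0.11 for Ctsb and -0.10 to 0.44 for Ctsd, over whole libraries from -0.18 to 0.30 for Lpl and -0.17 to 0.20 for Cd9, and the Trem2 difference of the change from -0.40 to 0.31. Leaving out doublets was not run, since Scrublet marked almost no nuclei outside PE-low EV replicate 2. Under every alternative that could be fitted, the Tyrobp difference outside microglia-like nuclei stayed above 0 (0.39 to 1.83 over the classes and whole libraries) and the Spp1 difference over whole libraries below 0 (-1.17 to -0.81).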
